A study of Arabidopsis thaliana with 8 samples.

Results

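Transcript levels of wild type Arabidopsis thaliana seedlings with and without abscisic acid (ABA) were measured by RNA sequencing in 4 of the 8 libraries of a study of wild type and skip-1. The 4 libraries were taken by their labels: 2 from 13-day-old Col-0 seedlings given 100 µM ABA for 3 h, and 2 from seedlings of the same age and genotype given 0 µM. All genes of the count table entered the comparison, and 21008 of its 33674 features had enough counts to be tested. The skip-1 seedlings, which carry a mutation in the gene of the splicing factor SKIP and received the same doses at the same age, also had 2 libraries per dose. Their libraries shared 1 model with the wild type, so that all groups contributed to the estimate of the spread, and are otherwise used only where the ABA effects of the genotypes were compared. All seedlings grew in long days. The labels do not say that the libraries of a group came from separate cultures, and the spread that p-values measure may therefore be technical.

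ABA is the hormone of water shortage and seed dormancy. Receptors of the PYR/PYL family bind it and then hold clade A protein phosphatases 2C (PP2Cs) inactive. Freed from the phosphatases, SnRK2 kinases phosphorylate ion channels of guard cells and the ABF group of bZIP transcription factors, which bind ABA-responsive elements (ABREs) in promoters. Genes induced in this way encode, among others, dehydrins and other late embryogenesis abundant (LEA) proteins, which protect cells as they dry, and enzymes that make compatible solutes, waxes and suberin. In leaves and roots ABA closes stomata and slows growth.

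The library totals were 22659593 and 23602532 counted reads without ABA and 22258628 and 20870110 with ABA. Levels are CPM, the counts of a gene relative to the total of its library, with totals adjusted by the TMM method, and n = 2 libraries a group throughout. Taken over genes, which do not replicate each other, log2 CPM correlated at 0.989 between both libraries without ABA, at 0.987 between both with ABA, and at most at 0.896 between the groups. Markers matched seedlings with leaf and root tissue. The 4 mesophyll markers summed to 12310.4 and 10554 CPM without ABA and 10653 and 8742 CPM with it. The 10 root markers summed to 172 and 148 CPM without ABA and 70.1 and 78.97 CPM with it. Of them 8 were called lower, against 19.5% of all genes tested. Some of these markers, such as CASP1, CASP2, EXPA7 and IRT1, are also in gene lists described below. Whether root RNA was less abundant or these genes respond to ABA cannot be told apart, and the part of either in other results was not tested. In RNA of seedlings, fewer cells of a type and less RNA per cell cannot be told apart. The 10 seed storage markers summed to 1.39 to 2.45 CPM in the 4 libraries, with CRU2, CRU3, SESA3 and SESA4 at 0 in all of them. The 8 flower and pollen markers summed to 14.6 to 26.8 CPM.

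ABA changed a large share of the transcriptome. By edgeR's quasi-likelihood test with Benjamini-Hochberg adjustment and a threshold of 0.05, 9061 of 21008 genes (43.1%) changed, of which 4974 rose (23.7%) and 4087 fell (19.5%). At least 2-fold rises were called for 2637 genes and falls for 1684 (2447 falls and 2188 rises, the other order, where only library size was used), at least 8-fold rises for 621 and falls for 176, and at least 32-fold rises for 202 and falls for 25. The libraries of the groups did not overlap for 73.6% of all genes tested. The genes called higher took 19.3% and 19.6% of all counts without ABA and 42.6% and 42.5% with it. Those called lower took 31.1% and 31.7% without ABA and 15.4% and 15.6% with it. The direction of both shifts follows from choosing the genes by their calls in the same libraries, and only the sizes are informative. The split of the calls depended on scaling: 54.9% were higher as given here and 36.0% where only library size was used, under which the median gene stood at −0.22 instead of −0.01 on the log2 scale. Fold changes are therefore read relative to the median gene.

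**Figure D1:**
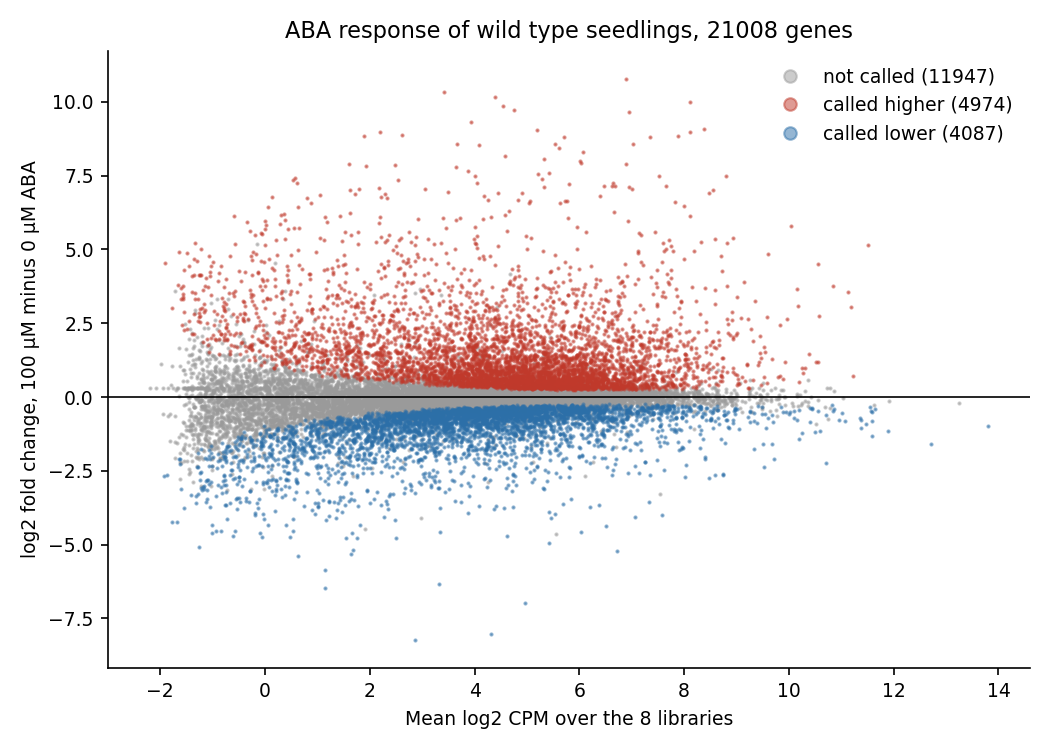
Each point is 1 of 21008 genes, with the mean log2 CPM over the 8 libraries on the x axis and the log2 fold change in wild type (100 µM minus 0 µM ABA) on the y axis; genes with no count in a group are drawn at their bound. Red points (4974) were called higher, blue points (4087) lower and grey points (11947) were not called, and the red points reach farther from 0 than the blue ones.

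The largest increases among genes whose mean log2 CPM over all 8 libraries reached 5 were led by LEA genes. AT3G17520, coding for an LEA family protein, stood at 0.291 and 0.08101 CPM without ABA and 332 and 338 CPM with it (10.78 ± 0.27, log2 fold change ± SE; edgeR adjusted p = 1.15e-07). Each SE was worked back from the gene's test result. It can be too small where a group held few counts, such as the 9 of this gene without ABA. LEA7 was at 1.04 and 0.446 CPM without ABA and 823 and 689 CPM with it (9.99 ± 0.46, adjusted p = 6.76e-06). The LEA family gene AT3G02480 was at 1.87 and 1.58 CPM without ABA and 1110.0 and 776 CPM with it (9.09 ± 0.47, adjusted p = 1.64e-05). In these 3 genes both ABA libraries lay far above both libraries without ABA. LEA4-5 went from 1.54 and 1.66 CPM to 811 and 826 CPM (8.99). LTI65, also known as RD29B and used as a marker of ABA signalling, went from 1.25 and 2.03 CPM to 758 and 739.5 CPM (8.83). The cold-regulated gene AT3G03341 (9.66), the von Willebrand factor domain gene AT5G50360 (8.83) and the uncharacterised gene AT5G05220 (9.05) also rose. SWEET15, a sucrose transporter also named SAG29 for its induction in senescence, was at 0.748 and 0.648 CPM without ABA and 372 and 253 CPM with it (8.8). ELI3-2, coding for an alcohol dehydrogenase, was at 0.582 and 0 CPM without ABA and 126 and 96.7 CPM with it (8.57). These genes were close to silent without ABA, and the size of several changes depended on single libraries. Without the first library without ABA the fold change was 11.89 for AT3G17520, 10.68 for LEA7, 8.13 for AT5G50360 and 14.25 for ELI3-2. Without the second it was 10.14 for AT3G17520, 9.88 for AT5G05220, 10.18 for AT5G50360 and 7.57 for ELI3-2. All of these kept their call. For AT3G17520 both values lay farther from 10.78 than its SE of 0.27.

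The 10 largest decreases, chosen by the same rule, held genes of cell walls, ABA perception and the response to darkness. XTH15, coding for an enzyme that cuts and rejoins xyloglucan in growing walls, was at 315 and 188 CPM without ABA and 7.72 and 5.798 CPM with it (−5.21 ± 0.47, adjusted p = 0.00026). The ABA receptor gene PYL4 was at 108 and 116 CPM without ABA and 3.22 and 4.02 CPM with it (−4.95 ± 0.26, adjusted p = 5.44e-06). Both libraries with ABA lay far below both without it in each case. SEN1, a gene induced by darkness, went from 567 and 519 CPM to 33. and 34.6 CPM (−4.0). BGAL4, a beta-galactosidase gene, went from 163 and 146 CPM to 6.43 and 8.51 CPM (−4.37), and UGT72E1, coding for a glucosyltransferase of lignin precursors, went from 246 and 285 CPM to 15.3 and 16.8 CPM (−4.05). FLA9, a fasciclin-like arabinogalactan gene (−3.74), the polyol transporter gene PMT6 (−3.98) and AT5G62280 of unknown function (−3.9) fell too. AT5G62280 was at 27.4 and 27.5 CPM without ABA and 1.48 and 2.19 CPM with it, and met the minimum level through the skip-1 libraries. AT5G02760 codes for a PP2C outside clade A, and lay just under the minimum level in the wild type libraries alone. It went from 64.01 and 56.9 CPM to 1.29 and 3.81 CPM (−4.58, or −5.57 without the second ABA library). BHLH39, a regulator of iron uptake that also met the minimum level through the skip-1 libraries, went from 6.65 and 2.27 CPM to 0.198 and 0.313 CPM (−4.1). Its fold change was −3.16 without the first library without ABA, and it lost its call without the first ABA library (edgeR adjusted p = 0.0606). The strand setting of the counting is not known, and some named genes overlap another gene on the opposite strand. Among them are BGAL4 by 909 bases, XTH15 by 382, LEA7 by 297, SNRK2.5 by 382, AAO3 by 985, ARR6 by 348, FER1 by 1334 and AT5G02760 by 91. Their reads cannot be told from those of that gene there. Without and with ABA the other gene was at 0 and 0 CPM for LEA7 and for AAO3. It was at 0.103 and 0.458 CPM for BGAL4, 0.348 and 0.077 CPM for FER1, and 1.87 and 1.52 CPM for XTH15. Higher levels were those for SNRK2.5 (28.3 and 44.7 CPM), ARR6 (24.6 and 26.5 CPM) and AT5G02760 (90.2 and 88.7 CPM).

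**Figure D2:**
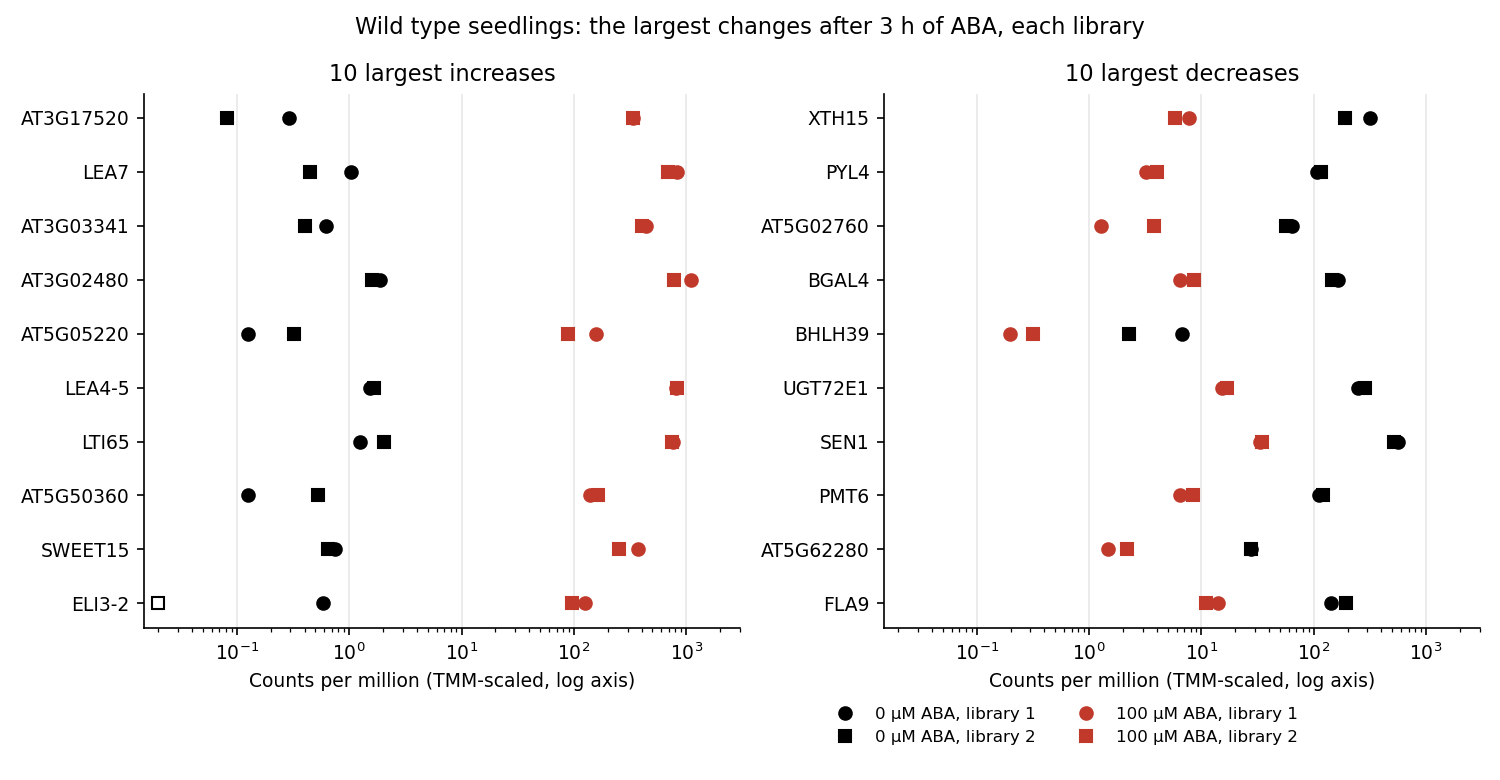
Levels of the 10 largest increases (left) and 10 largest decreases (right) in each of the 4 wild type libraries, in TMM-scaled CPM on a log axis; black marks are libraries without ABA, red marks libraries with 100 µM ABA, and the open mark at the left edge is a library with no count. That both red marks lie on 1 side of both black marks in all 20 genes was a condition of their choice.

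Genes that went from no count at all were counted separately. In both libraries without ABA 24 genes had no count and in each ABA library at least 1 CPM, and this set was formed after the values were seen. They included the LEA genes EM1 (15.6 and 13.1 CPM with ABA, at least 234-fold higher), AT4G21020 (5.99 and 2.66 CPM), AT2G18340 and AT2G33690. Others were CBF4, a factor of the drought response (9.55 and 18.7 CPM, at least 228-fold), GASA3 of the gibberellin-regulated peptides (at least 134-fold), the alternative oxidase gene AOX2 (at least 46.3-fold), the poly(ADP-ribose) polymerase 3 gene AT5G22470 (at least 44.6-fold) and the phosphatase gene AHG1 (3.51 and 1.36 CPM, at least 40.1-fold). The seed maturation gene AT3G12960 also appeared. EM1 and AHG1 are known from maturing seeds, whereas the seed storage markers above stayed near 0. In the other direction SAUR57 alone had at least 1 CPM in each library without ABA and no count with it (at least 23.4-fold lower). The bounds use a floor of 3 counts over a group and cover counting error only.

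The genes that gained most transcripts were a different set from those with the largest fold changes. LTI78, also called RD29A, is known as a stress gene with ABRE and dehydration-responsive elements. It was at 162 and 259.9 CPM without ABA and 7731 and 7086 CPM with it (5.14 ± 0.48, edgeR adjusted p = 0.000254). The dehydrin gene COR47 was at 401 and 500.4 CPM without ABA and 5349 and 5292 CPM with it (3.56), and the dehydrin gene ERD10 at 158 and 199 CPM without ABA and 4097 and 3985 CPM with it (4.5). ADC2, whose enzyme makes agmatine for polyamine synthesis, was at 483 and 644 CPM without ABA and 4558 and 4700.5 CPM with it (3.04). KIN2, coding for a small LEA-like protein, was at 202 and 306 CPM without ABA and 3365 and 3571 CPM with it (3.77). Per length, in the deposited FPKM values, KIN2 was highest of these 5 with ABA, at a mean of 6595 FPKM, followed by COR47 (3984), LTI78 (2704), ERD10 (2438) and ADC2 (1487). Reads of KIN2 and its close paralog KIN1 could be split wrongly by the counting. The 5 largest losses in CPM were, in order, those of LHCB1.3, LHCB1.5, GRP7, AT1G20620 and LHCB1.4. The light-harvesting gene LHCB1.3 was at 14819 and 18349 CPM without ABA and 8824 and 7904 CPM with it (−0.99), LHCB1.5 at 5991 and 6523 CPM without ABA and 2453 and 1734 CPM with it (−1.58) and LHCB1.4 at 1922 and 2566 CPM without ABA and 508 and 454 CPM with it (−2.22). GRP7, an RNA-binding protein gene under clock control, went from 4999 and 5483 CPM to 2200.3 and 2035 CPM (−1.31). The catalase gene AT1G20620 went from 3906 and 4104 CPM to 1848 and 2028 CPM (−1.05), and lost its call when any 1 wild type library was left out (edgeR adjusted p of 0.0632 to 0.0962). LHCB1 genes are near-identical copies, so their shares of the reads are uncertain. The 10 most abundant genes held 6.12% and 6.41% of the counts without ABA and 4.85% and 4.57% with it.

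Sequences upstream of responding genes were read next, since ABREs are the known target of the ABF factors. Windows of 250 bases directly upstream of the annotated start were taken from RefSeq TAIR10.1 and searched for ACGTGNC, the letters of an ABRE, on both strands. A match is counted as letters in the window and not as a bound site, and ACGTGNC can overlap the G-box CACGTG. Of the 10 largest increases 6 held ACGTGNC, among them LEA7, LTI65 and AT3G17520, and of the 10 largest decreases none did. The windows of these 3 genes, of SWEET15 as an increase with no match, and of PYL4 and XTH15 as decreases are shown 5′ to 3′ in the direction of the gene, with matches in capitals. No other annotated gene overlaps these 6 windows. They lie at chr1:19619474-19619723 (plus strand) for LEA7, chr5:21236771-21237020 (plus strand) for LTI65, chr3:6000448-6000697 (minus strand) for AT3G17520, chr5:4183355-4183604 (minus strand) for SWEET15, chr2:16049668-16049917 (plus strand) for PYL4 and chr4:8138393-8138642 (minus strand) for XTH15.
LEA7: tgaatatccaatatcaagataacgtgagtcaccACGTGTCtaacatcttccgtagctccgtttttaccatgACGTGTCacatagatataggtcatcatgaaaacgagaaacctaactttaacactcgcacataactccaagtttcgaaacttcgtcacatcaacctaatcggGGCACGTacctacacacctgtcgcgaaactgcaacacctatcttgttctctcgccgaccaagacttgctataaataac
LTI65: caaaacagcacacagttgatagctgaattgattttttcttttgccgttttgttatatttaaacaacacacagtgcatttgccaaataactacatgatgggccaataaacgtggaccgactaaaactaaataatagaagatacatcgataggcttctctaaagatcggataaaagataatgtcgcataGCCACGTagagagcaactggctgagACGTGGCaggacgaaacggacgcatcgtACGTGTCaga
AT3G17520: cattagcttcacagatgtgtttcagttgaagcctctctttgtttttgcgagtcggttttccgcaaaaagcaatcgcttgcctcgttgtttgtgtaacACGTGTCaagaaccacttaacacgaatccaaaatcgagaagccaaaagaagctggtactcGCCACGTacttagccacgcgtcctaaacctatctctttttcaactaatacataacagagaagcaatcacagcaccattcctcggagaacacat
SWEET15: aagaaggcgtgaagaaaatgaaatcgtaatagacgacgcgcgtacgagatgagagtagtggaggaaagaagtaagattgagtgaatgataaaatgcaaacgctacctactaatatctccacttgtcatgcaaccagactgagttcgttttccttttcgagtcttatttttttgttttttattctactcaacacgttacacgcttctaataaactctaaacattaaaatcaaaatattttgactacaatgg
PYL4: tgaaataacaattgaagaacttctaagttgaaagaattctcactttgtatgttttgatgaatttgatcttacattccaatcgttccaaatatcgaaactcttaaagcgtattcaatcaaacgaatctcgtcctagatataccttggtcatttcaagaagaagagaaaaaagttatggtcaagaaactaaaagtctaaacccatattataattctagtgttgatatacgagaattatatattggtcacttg
XTH15: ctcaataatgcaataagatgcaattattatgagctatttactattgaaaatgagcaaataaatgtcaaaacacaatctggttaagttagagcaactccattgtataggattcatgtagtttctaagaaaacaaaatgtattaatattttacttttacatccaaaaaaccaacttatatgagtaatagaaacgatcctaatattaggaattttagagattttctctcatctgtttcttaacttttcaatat

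LEA7 and LTI65 held 3 matches each and AT3G17520 held 2, in both orientations. The genes with the largest gains in CPM differed from these: no window of LTI78, COR47, ADC2, ERD10 or KIN2 held ACGTGNC. The window of LTI78 did not hold the shorter letters ACGTG either. Among the 5 largest losses in CPM, LHCB1.3 held 2 matches and LHCB1.4 held 1, and LHCB1.5, GRP7 and AT1G20620 held none. Over all genes the share of windows with ACGTGNC followed the size of the response. It was 37.7% of 199 windows of genes that rose by a log2 fold change of 5 or more, 23.0% from 3 to 5, 16.8% from 2 to 3, 16.0% from 1 to 2 and 12.9% below 1. Among genes not called it was 7.96%, and over all 27443 protein-coding genes 8.57%. Among genes called lower the share was 7.29% above −1, 5.92% from −2 to −1, 5.88% from −3 to −2, 4.26% from −5 to −3, and 0 of 24 windows at −5 or less, which allows a share of up to 12.5%. At least 2 matches were found in 18.6% of windows of the class of 5 or more and in 1.8% of those not called. The G-box CACGTG was in 35.2% of windows of the class of 5 or more and in 6.06% of those not called, and in 4.85%, 3.89%, 5.88% and 7.09% of the lower classes down to −5. The shorter core ACGTG, which both contain, was in 61.3% and 21.5%, and in 18.25%, 19.4%, 21.4% and 24.1% of those lower classes, so neither share fell steadily among genes called lower. As letters of another stress response, the heat shock element AGAANNTTC on both strands was in 6.03% of windows of that class and in 5.26% of those not called. Windows of the class of 5 or more were a little richer in G and C (33.8% against 31.7%).

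Matches were most frequent between 51 and 100 bases upstream of the start in both of the following classes. Among 608 windows of genes that rose by 3 or more, 10.9% had a match between 51 and 100 bases upstream of the start, 9.70% between 101 and 150, and 5.43% and 3.62% in the bins nearest and farthest. In windows of genes not called the bin from 51 to 100 bases held a match in 2.57%. Strongly responding genes of both directions also had fewer exons. Among genes with a window the median was 2 exons in the class of 5 or more and 5 exons in genes not called, and genes with 1 exon were 29.1% and 13.5% of these classes and 37.5% of the 24 genes with a window at −5 or less.

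**Figure D3:**
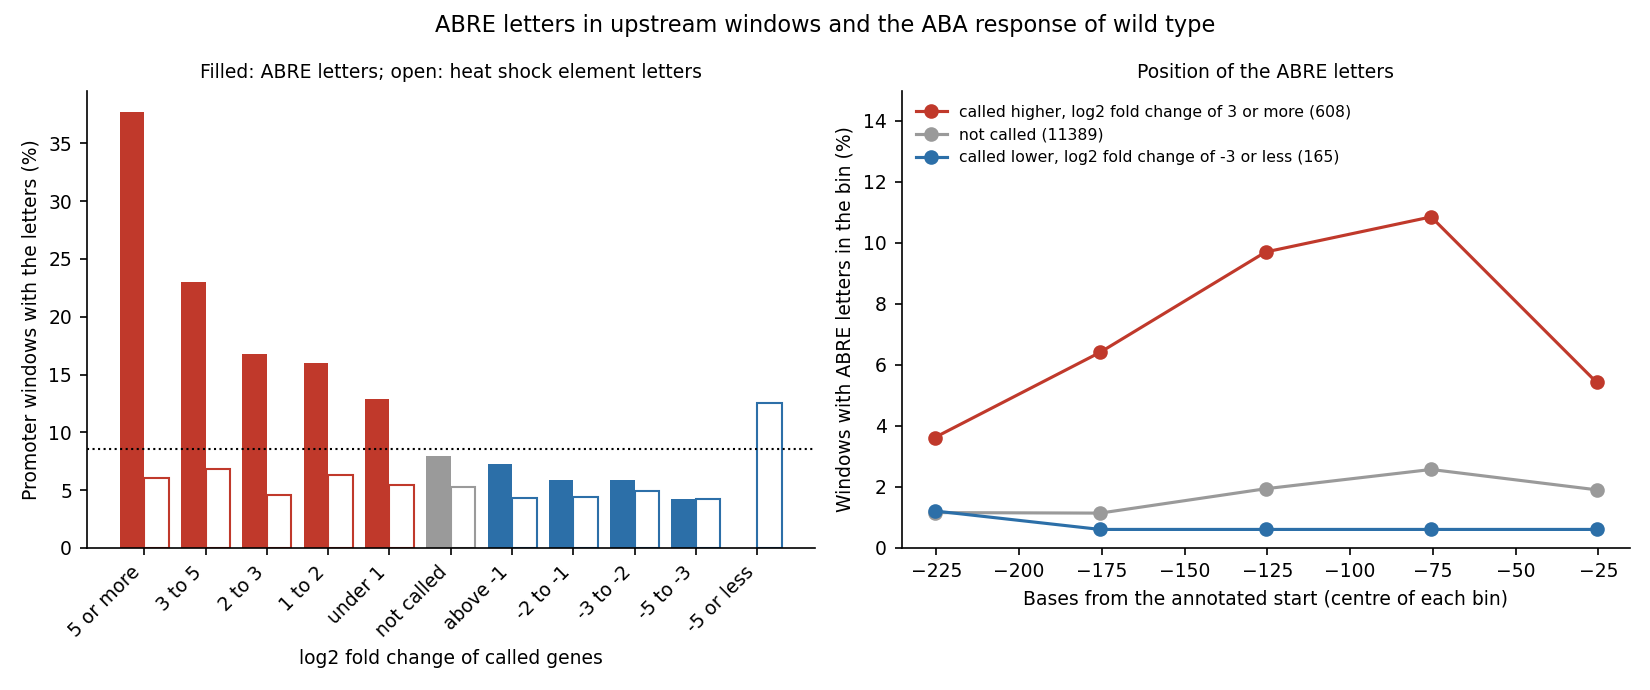
Left, share of 250-base upstream windows that hold ACGTGNC (filled bars) or AGAANNTTC (open bars) by class of log2 fold change in wild type, red for genes called higher, grey for genes not called and blue for genes called lower; the dotted line is the share of ACGTGNC over all protein-coding genes (8.57%). Right, share of windows with ACGTGNC in bins of 50 bases by distance from the annotated start, with the highest value, 10.9%, in genes that rose by 3 or more.

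Gene lists are described by the number of tested members that rose or fell and by their median log2 fold change, against 23.7% higher, 19.5% lower and a median of −0.01 over all genes tested. Where the larger of the higher and lower counts of a list turned or was lost under either other scaling, this is said beside it. In the core ABA pathway, receptors and phosphatases went opposite ways. Of 9 PYR/PYL receptor genes tested 6 fell and 1 rose (median −1.89). PYL6 was at 25.3 and 29.3 CPM without ABA and 0.396 and 0.261 CPM with it (−6.35 ± 0.35, adjusted p = 3.58e-06), so that both ABA libraries held hardly any of its transcripts. PYL7 was the exception and went from 9.01 and 9.84 CPM to 19.6 and 22.1 CPM (1.15), and overlaps AT4G01030 on the other strand by 571 bases. Summed over the family, receptor transcripts were at 454 and 491 CPM without ABA and 117 and 129 CPM with it. All 9 clade A PP2C genes rose (median 4.89). ABI2 was at 9.85 and 11.1 CPM without ABA and 320.2 and 301 CPM with it (4.89) and HAB2 went from 33.2 and 32.4 CPM to 165 and 176 CPM (2.37). The summed level of the phosphatases went from 188 and 221 CPM to 3833 and 4152 CPM.

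SnRK2 kinase genes split, with 4 of 10 higher and 3 lower (median 0.24), and 3 higher and 4 lower with scaling by library size alone. SNRK2.7 was at 1.58 and 2.59 CPM without ABA and 112 and 65.2 CPM with it (5.4 ± 0.45), OST1, the kinase that activates anion channels of guard cells, went from 17.03 and 17.58 CPM to 66.1 and 70.6 CPM (1.98), and SNRK2.5 went from 12.7 and 18.8 CPM to 3.07 and 2.19 CPM (−2.58). Of 8 genes of a MAP kinase cascade linked to ABA 5 rose and 2 fell (median 1.01). MAPKKK17, whose kinase starts that cascade, was at 2.24 and 1.38 CPM without ABA and 46.6 and 53.2 CPM with it (4.78), MPK7 rose (2.32) and MPK1 fell (−1.19). Of 25 calcium-dependent kinase genes 8 rose and 3 fell (44% called either way, against 43.1% of all genes), with CPK15 at 3.05 and CPK27 at −1.18. That list's direction turned with scaling by library size alone (5 higher, 7 lower), and only 4 rose without the first library lacking ABA or the second ABA library and 5 without the second library lacking ABA. Of 11 genes of ABF and ABI5 factors and their AFP repressors 9 rose (median 2.88). ABF3 was at 26.6 and 34.9 CPM without ABA and 434 and 432 CPM with it (3.82) and ABF2 went from 25.2 and 31.5 CPM to 190.5 and 226 CPM (2.88).

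Among genes that make and remove the hormone some or all members rose and none was called lower. Of 9 genes of ABA synthesis and release 5 rose and none fell (median 0.98). AAO3, the oxidase of the last step, went from 28.6 and 23.5 CPM to 96.6 and 101 CPM (1.92), and ABA3, which activates the cofactor of that oxidase, went from 11.7 and 9.64 CPM to 27.1 and 24.7 CPM (1.28). All 6 genes of ABA breakdown and conjugation rose (median 3.81). CYP707A1, coding for the hydroxylase that starts breakdown, was at 5.07 and 6.12 CPM without ABA and 257 and 266 CPM with it (5.54 ± 0.13, adjusted p = 9.99e-08), and CYP707A4 went from 1.16 and 0.689 CPM to 17.3 and 12.4 CPM (4.0). The breakdown genes summed to 39.4 and 41.6 CPM without ABA and 428 and 455 CPM with it. The sum of the synthesis genes went from 234 and 208 CPM to 619 and 689 CPM.

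**Figure D4:**
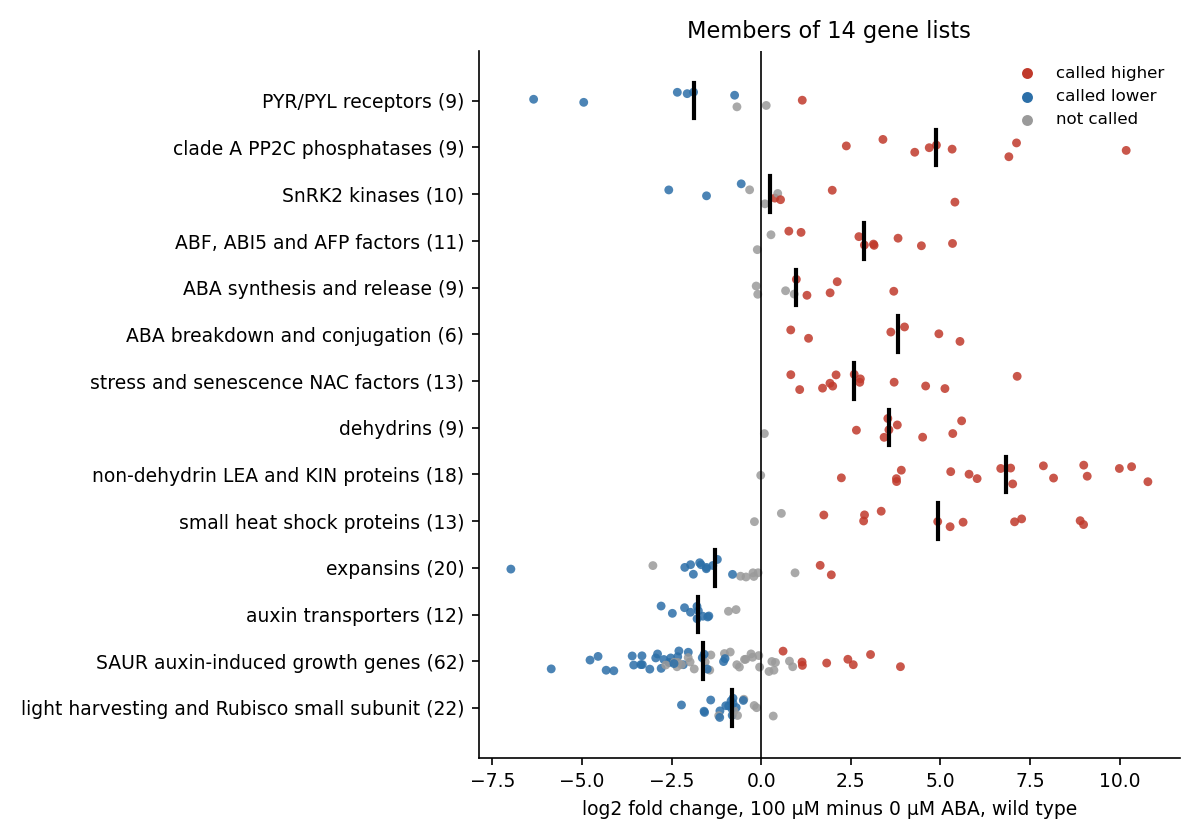
Log2 fold change in wild type (x axis) of each tested member of 14 gene lists, with the number tested in brackets; red members were called higher, blue lower and grey not called, and black bars are list medians with members lacking counts in a group at their bound. The phosphatase points all lie above 2, and those of the receptors reach below −6.

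Transcription factor genes of several stress families rose. All 13 stress and senescence NAC genes rose (median 2.59), and their sum went from 326 and 333 CPM to 2533 and 2469 CPM. NAC032 was at 15.1 and 18.3 CPM without ABA and 411 and 391 CPM with it (4.59) and NAC102 went from 81.3 and 71.5 CPM to 292 and 316 CPM (1.99). Of 14 stress-related R2R3 MYB genes 11 rose and 2 fell (median 2.58). MYB102 was at 0.498 and 0.729 CPM without ABA and 62.5 and 64.8 CPM with it (6.68) and MYB74 at 1.54 and 1.499 CPM without ABA and 150.5 and 152 CPM with it (6.64), whereas MYB60, a guard cell factor of stomatal opening, went from 15.6 and 16.6 CPM to 4.305 and 6.42 CPM (−1.59). Class I HD-Zip genes split, with 6 of 15 higher and 5 lower (3 lower without the first ABA library) and a median of −0.07. HB7 was at 24.1 and 28.8 CPM without ABA and 992 and 982 CPM with it (5.22) and HB12, its closest relative, at 9.35 and 13.04 CPM without ABA and 340.3 and 346 CPM with it (4.94). Both factors are known to act in the drought response. HB5 went from 139 and 173 CPM to 88.2 and 93.6 CPM (−0.78). Of 6 CBF and DREB2 genes 5 rose (median 2.15), but only 2 did without either library lacking ABA and 3 without the first ABA library. DREB2A, a factor of the dehydration response, went from 11.3 and 8.83 CPM to 117 and 78.1 CPM (3.28).

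Of 63 WRKY genes 20 rose and 9 fell (median 0.32), with 12 rising without the first library without ABA and 13 without the second ABA library. In either direction 46.0% of these WRKY genes were called, against 43.1% of all genes. WRKY31 (2.3) and WRKY8 (2.45) rose and WRKY49 went from 12.01 and 11.5 CPM to 1.24 and 1.25 CPM (−3.23). Of 18 heat shock factor genes 9 rose and 3 fell (median 0.58), or 1 fell without either library lacking ABA or the second ABA library. HSFB2A rose (2.89), HSFA7A went from 14.2 and 12.6 CPM to 2.72 and 2.61 CPM (−2.32), and HSFA6A, a factor known to respond to ABA and salt, had 3 counts without ABA, all in the second library, and was 129-fold higher with ABA (95% counting interval 43.8 to 630.2).

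Genes of protective proteins rose, with the LEA and KIN list at the highest median of the 57 lists. Of 18 non-dehydrin LEA and KIN genes 17 rose (median 6.82), and their sum went from 1075 and 1237 CPM to 13237 and 12661 CPM. Their remaining member, SAG21, was not called (−0.01, adjusted p = 0.987), and is named after its value was seen. Of 9 dehydrin genes 8 rose (median 3.80, or 3.56 with a member lacking counts at its bound), and their sum went from 2482 and 2433 CPM to 14526 and 14348 CPM. XERO2 was at 24.1 and 24.2 CPM without ABA and 1003 and 954 CPM with it (5.34) and RAB18 at 8.101 and 8.75 CPM without ABA and 428 and 384 CPM with it (5.59). The libraries of the groups lay far apart in both. Of 13 small heat shock protein genes 11 rose (median 4.92), and their sum went from 23.9 and 16.6 CPM to 254 and 270.4 CPM. HSP22.0 was at 0.291 and 0.446 CPM without ABA and 12.6 and 16.2 CPM with it (5.27), and HSP17.4 had 1 count without ABA, in the second library, and was 643-fold higher with ABA (95% counting interval 115 to 25447). Several of these genes are close paralogs, so their shares of reads are uncertain. The letters ACGTGNC were in the windows of 11 of 18 LEA and KIN genes, 3 of 9 dehydrin genes and 1 of 13 small heat shock protein genes. Over all genes tested the share was 9.67%. Lists in which most members did not rise varied as well. Matches were in 8 of 16 clock, 5 of 13 iron uptake and 6 of 24 nuclear photosystem windows, but in 0 of 29 XTH and 0 of 12 auxin transporter windows.

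Single genes of compatible solutes rose strongly. P5CS1, the first enzyme of proline synthesis, was at 54.9 and 59.3 CPM without ABA and 1385 and 1871 CPM with it (4.83 ± 0.30, adjusted p = 1.61e-05), and its paralog P5CS2 went from 88.8 and 96.5 CPM to 233 and 209 CPM (1.25). Of 9 genes of proline synthesis, breakdown and transport 4 rose and 1 fell (median 0.68), and the falling member, ERD5 of proline breakdown, went from 223 and 278 CPM to 119.6 and 112 CPM (−1.12, adjusted p = 0.0452). ERD5 lost its call without any 1 wild type library or either skip-1 library with ABA (edgeR adjusted p of 0.0729 to 0.174). Of 7 galactinol and raffinose genes 5 rose and 1 fell (median 1.77). GOLS2, of galactinol synthesis, was at 3.82 and 3.97 CPM without ABA and 74.5 and 77.7 CPM with it (4.29), GOLS1 rose (1.91), and DIN10, a raffinose synthase family gene induced by darkness, went from 862 and 801 CPM to 158 and 105 CPM (−2.66). The summed level of this list went from 907 and 856 CPM to 401 and 387 CPM, opposite to its median.

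Genes of barrier lipids rose as well. Of 11 wax genes 9 rose and none fell (median 2.31), and of 11 suberin genes 9 rose (median 1.62). CER3, of alkane formation in the cuticle, went from 63.7 and 69.8 CPM to 680.3 and 586 CPM (3.25), and LACS2, which activates fatty acids, went from 44.9 and 41.4 CPM to 206 and 223 CPM (2.31). KCS2, an elongase of suberin acids, was at 7.31 and 7.17 CPM without ABA and 336 and 316 CPM with it (5.49 ± 0.11, adjusted p = 8.98e-08), and ABCG6, a transporter of suberin deposition, went from 9.43 and 8.26 CPM to 70.1 and 76.4 CPM (3.05). No suberin window held ACGTGNC, against 3 of 11 wax windows.

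Genes of photosynthesis fell in part. Antenna and small Rubisco subunit genes fell in 15 of 22 cases and rose in none (median −0.81), of 24 nuclear photosystem genes 14 fell and none rose (median −0.39), and of 19 chlorophyll synthesis genes 7 fell and none rose (median −0.30). These counts depended on single libraries, with 9 photosystem genes lower without either library lacking ABA, 5 without the second ABA library, and 4 chlorophyll synthesis genes lower without the first library lacking ABA or the second ABA library. RBCS1B went from 1524 and 1488 CPM to 466 and 533 CPM (−1.59), PSAD-2 of photosystem I went from 408 and 327 CPM to 187 and 170.1 CPM (−1.04), PSBQ of photosystem II changed by −0.59, and CHLM of chlorophyll synthesis went from 259 and 245 CPM to 106 and 120.5 CPM (−1.16). The summed level of the light-harvesting and Rubisco list went from 63742 and 62541 CPM to 39943 and 32713 CPM. In this list 8 of 22 windows held ACGTGNC. Of 9 chlorophyll breakdown genes 5 rose and 1 fell (median 1.03), a fall not called without the second library lacking ABA or the first ABA library. NYE1, whose protein removes the magnesium of chlorophyll, went from 13.7 and 17.1 CPM to 114 and 113 CPM (2.88), and PAO, the oxygenase that opens the ring, went from 102 and 124 CPM to 353 and 323 CPM (1.58).

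Starch and sugar genes rose in part. Of 15 starch degradation genes 7 rose and 1 fell (median 0.34). BAM1, a beta-amylase of guard cells and stressed leaves, was at 56.8 and 88.1 CPM without ABA and 1011 and 760.1 CPM with it (3.61), SEX1, which phosphorylates starch, went from 557 and 489.9 CPM to 1201 and 1095 CPM (1.13), and DPE1 changed by −0.5. Of 12 SWEET sugar transporter genes 8 rose and 2 fell (median 1.05), with 5 rising without either library lacking ABA or the first ABA library. SWEET4 was at 1.04 and 0.527 CPM without ABA and 79.9 and 70.5 CPM with it (6.58) and SWEET16, a vacuolar transporter, changed by −1.8. Of 7 class II trehalose phosphate synthase genes 4 rose and none fell (median 0.42), and 2 rose without either library lacking ABA, without the second ABA library or with scaling by library size alone. TPS6 went from 40.1 and 45.4 CPM to 76.6 and 85.5 CPM (0.92).

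Recycling genes were mixed. Of 9 senescence genes and nucleases 7 rose and 1, SEN1, fell (median 1.66). RNS1, a ribonuclease induced by phosphate starvation and senescence, was at 0.831 and 0.567 CPM without ABA and 236 and 205 CPM with it (8.29 ± 0.21, adjusted p = 1.15e-07), with hardly any transcripts in either library without ABA. SRG1 went from 8.101 and 7.33 CPM to 44.6 and 45.3 CPM (2.54), and SAG12, a late marker of senescence named after its value was seen, had no count in any wild type library. Of 10 genes of ATG8 proteins and the receptor NBR1 of autophagy 3 rose and 1 fell (3 and 3 with scaling by library size alone). In either direction 40% were called, against 43.1% of all genes. ATG8H went from 16.9 and 15.6 CPM to 54.8 and 57.04 CPM (1.79), ATG8A changed by 1.34 and ATG8F by −0.73.

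Of 20 expansin genes, whose proteins loosen walls, 11 fell and 2 rose (median −1.29). EXPA8 was at 44.1 and 40.7 CPM without ABA and 0.297 and 0.366 CPM with it (−6.98 ± 0.28, adjusted p = 7.88e-07), EXPA9 went from 25.96 and 27.7 CPM to 8.81 and 7.52 CPM (−1.72), and EXPA10 rose (1.65). Of 29 XTH genes 12 fell and 8 rose (median −0.75), with 5 rising without either library lacking ABA or the first ABA library. XTH8 changed by −2.02, XTH17 by −1.73 and XTH30 by 1.22. Cellulose synthase genes split, with 3 of 10 higher and 1 lower, and 2 higher and 3 lower with scaling by library size alone. In either direction 40% were called, against 43.1% of all genes. CESA1, of the primary wall, went from 452 and 491 CPM to 752 and 766 CPM (0.69), and without the second library lacking ABA or the first ABA library only 1 gene of this list rose.

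In each of 3 lists of auxin genes more members fell than rose. Of 12 auxin transporter genes 10 fell and none rose (median −1.77), and their sum went from 859 and 959.6 CPM to 206 and 289 CPM. PIN7, an efflux carrier, was at 148 and 146 CPM without ABA and 38.5 and 46.3 CPM with it (−1.79) and LAX3, an influx carrier of lateral root emergence, at 36.1 and 39.1 CPM without ABA and 4.35 and 6.53 CPM with it (−2.79). Of 62 SAUR genes, which auxin induces in growing cells, 27 fell and 8 rose (median −1.62), and only 6 and 4 were called where a mean log2 CPM of 2 was needed to be tested. SAUR5 went from 6.48 and 5.99 CPM to 0.297 and 0.418 CPM (−4.11), SAUR16 went from 18.03 and 16.1 CPM to 1.48 and 1.41 CPM (−3.55) and SAUR59 rose (1.15). Of 26 Aux/IAA repressor genes 9 fell and 2 rose (median −0.57), with IAA27 at −1.75 and IAA4 at −1.65. The 2 rises fell to 1 or none when any 1 wild type library was left out.

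Cell division genes fell in part. Of 28 cyclin genes 11 fell and 1 rose (median −0.43), with 4 falling without the first library lacking ABA and 6 without the second ABA library. CYCD3;1, which links hormones to division, went from 21.5 and 20.05 CPM to 8.96 and 10.7 CPM (−1.08) and CYCD3;2 changed by −0.73. Of 46 histone genes 10 fell and 4 rose, or 2 rose without any 1 wild type library (median −0.06), shares near or below those of all genes, and 20 fell with scaling by library size alone. HTA3, an H2A.X gene, changed by −0.65, HTB2 by −0.59 and HTA7 by 0.54.

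Among aquaporin genes more rose than fell. Of 19 genes 13 rose and 5 fell (median 0.73), and their sum went from 5792 and 6464 CPM to 10003 and 9953 CPM. PIP2;3 was at 18.3 and 19.9 CPM without ABA and 353 and 281 CPM with it (4.05), PIP1;4 at 198 and 191 CPM without ABA and 1213 and 1219 CPM with it (2.64) and PIP1;5, which fell, at 227 and 265 CPM without ABA and 72.8 and 67.2 CPM with it (−1.81). All 3 are water channels of the plasma membrane. Their groups did not overlap, as for 18 of the 19 genes and for 73.6% of all genes tested. Without the first ABA library 3 of these genes fell.

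Other hormone pathways differed in direction. Of 13 jasmonate synthesis genes 10 rose and none fell (median 1.75), and of 12 JAZ repressor genes 10 rose and 1 fell (median 2.03). ACX1, of the beta-oxidation steps, was at 153 and 168 CPM without ABA and 968 and 1000.3 CPM with it (2.62), AOS, the first dedicated enzyme, went from 70.6 and 67.5 CPM to 209 and 255 CPM (1.75), and JAZ1 was at 14.5 and 12.4 CPM without ABA and 196 and 217 CPM with it (3.95). The falling member, JAZ4 (−0.99), lost its call when any 1 wild type library was left out (edgeR adjusted p of 0.0746 to 0.0867). Of 9 type-A ARR genes, which cytokinin induces, 5 fell and none rose (median −1.31), or 3 without the first ABA library. ARR5 went from 8.81 and 9.52 CPM to 1.63 and 1.41 CPM (−2.58) and ARR6 changed by −1.77. Of 19 ethylene genes 7 fell and 3 rose (median −0.50), but 2 fell without the second library lacking ABA or the first ABA library. CTR1, the kinase that represses ethylene signalling, went from 116 and 115 CPM to 69.9 and 72.7 CPM (−0.69), and ACS2, of ethylene synthesis, went from 0.332 and 0.567 CPM to 17.9 and 15.1 CPM (5.18).

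Gibberellin genes split, with 6 of 19 higher and 5 lower, 6 and 6 with DESeq2's size factors, and 6 and 8 with scaling by library size alone. GA2OX6, which inactivates gibberellin, went from 6.77 and 12.4 CPM to 71.3 and 99.3 CPM (3.15), GA2OX7 had 2 counts without ABA, both in the second library, and was 82.4-fold higher with ABA (95% counting interval 22.4 to 687), and GAI, coding for a DELLA repressor, went from 74.3 and 74.8 CPM to 27.3 and 28.6 CPM (−1.42). Fewer falls were called without the first library lacking ABA (3) or the second ABA library (2). Of 10 brassinosteroid genes 3 fell and 2 rose (50% called either way, against 43.1% of all genes). CPD, of hormone synthesis, was at 241 and 255 CPM without ABA and 80.1 and 92.6 CPM with it (−1.52), the receptor gene BRI1 went from 171 and 168 CPM to 80.7 and 95.2 CPM (−0.95) and DWF4 changed by 0.63. Of 12 salicylate and PR genes 3 rose and 2 fell (3 and 3 with scaling by library size alone), shares near those of all genes. EDS5, an exporter of salicylate precursors, was at 1.63 and PAD4 at −1.11.

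**Figure D5:**
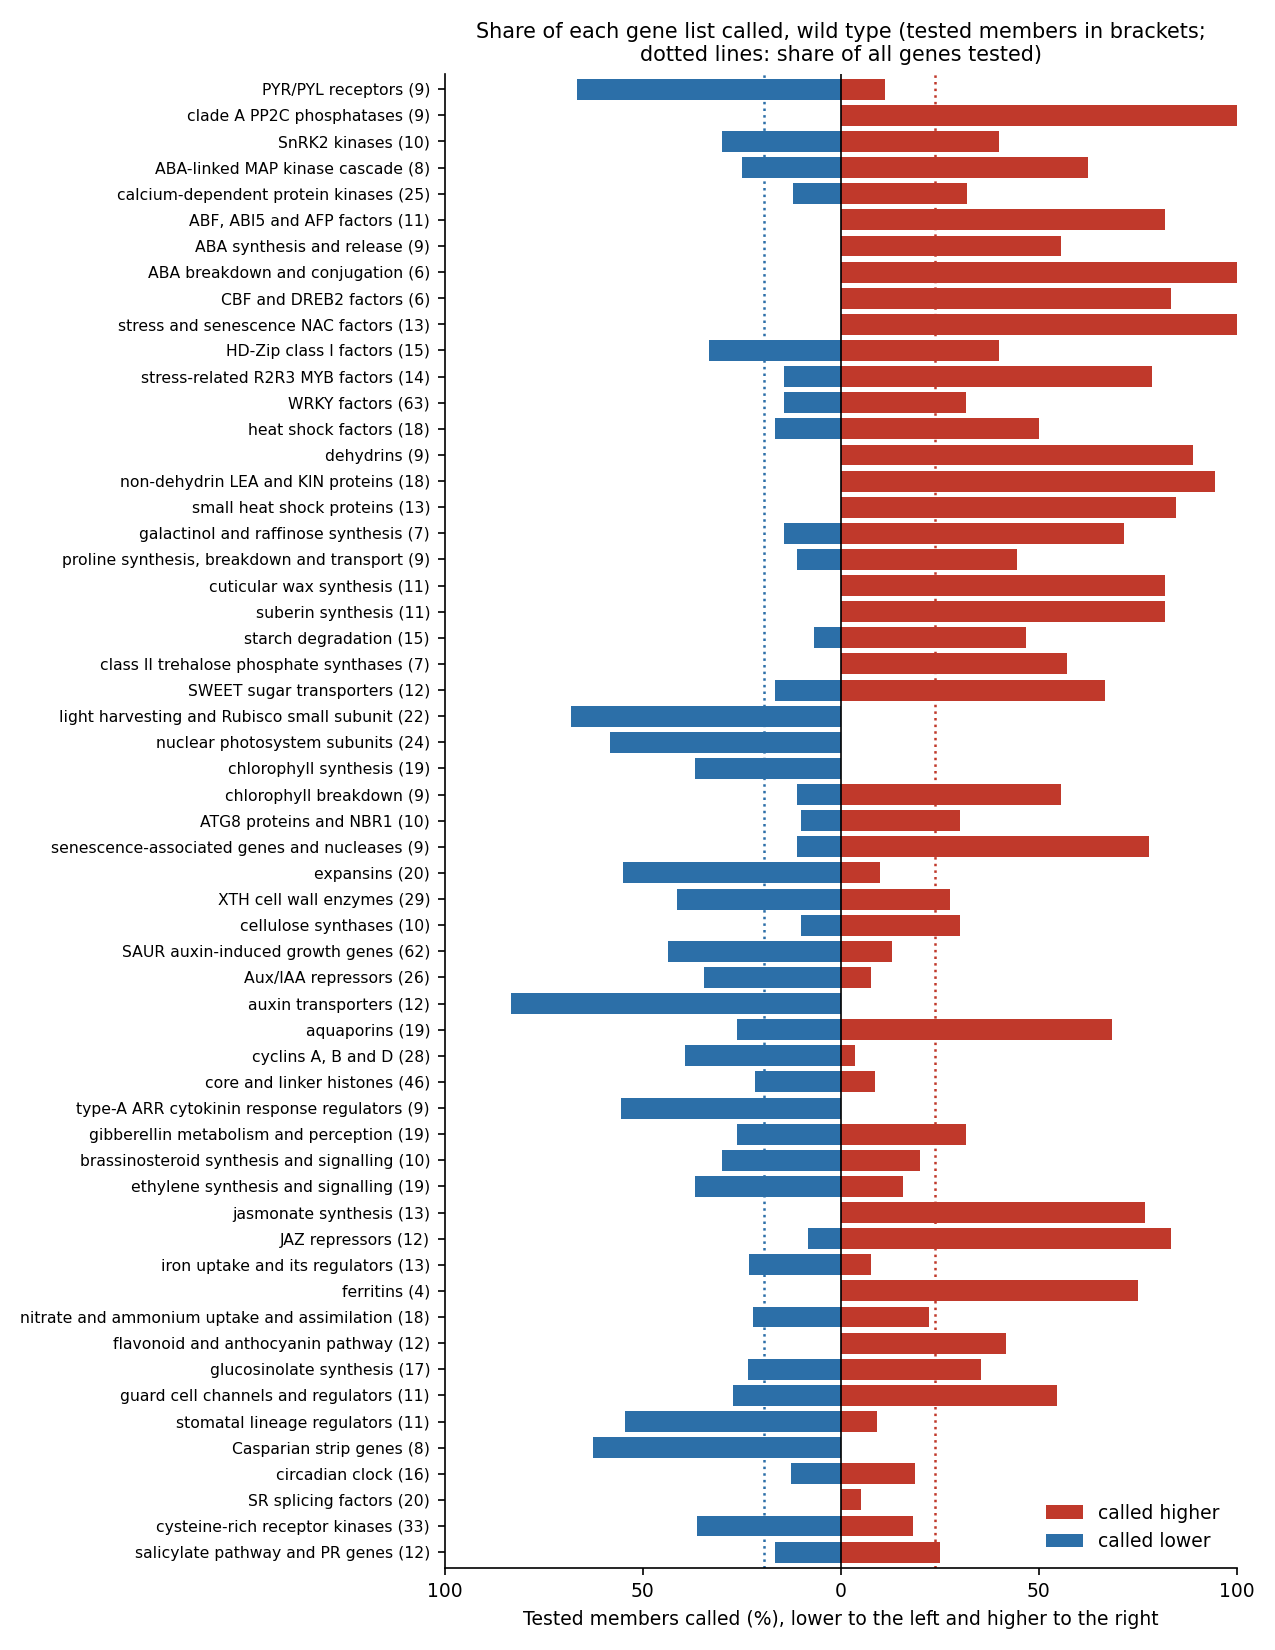
Share of the tested members of each of 57 gene lists called higher (red, to the right) and lower (blue, to the left) in wild type, with the number tested in brackets; dotted lines are the shares over all genes tested (23.7% higher, 19.5% lower). Bars of the phosphatase, breakdown and NAC lists reach 100% to the right, and those of the antenna, auxin transporter and Casparian strip lists point to the left alone.

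The lists of Casparian strip and iron uptake genes share members such as CASP1, CASP2 and IRT1 with the root markers, whose fall is therefore in part the same observation. Of 8 Casparian strip genes, which seal the endodermis, 5 fell and none rose (median −0.93), with 3 falling without the first library lacking ABA or the first ABA library. CASP1 went from 22.2 and 15.7 CPM to 9.5 and 8.36 CPM (−1.08) and CASP2 went from 7.15 and 5.51 CPM to 0.9401 and 1.097 CPM (−2.63). Of 13 iron uptake genes 3 fell and 1 rose (median −0.45), and 6 fell without the second library lacking ABA. The iron transporter gene IRT1 was at 12.8 and 3.402 CPM without ABA and 0 and 0.0522 CPM with it, 316-fold lower with ABA (95% counting interval 56.5 to 12528), with fitted log2 fold changes of −6.80 to −10.54 when 1 wild type library was left out, and FIT1, a regulator of uptake, was at 7.48 and 4.901 CPM without ABA and 0.247 and 0.9402 CPM with it (−3.39). Both libraries of a group differed widely in both genes, and the fold change of FIT1 was −2.74 and −4.64 without the first and the second ABA library. F6'H1, of coumarin synthesis, went from 12.2 and 8.87 CPM to 30.6 and 38.02 CPM (1.7). The shares of 3 lower and 1 higher of 13 iron uptake genes were near or below those of all genes. Of 4 ferritin genes, whose proteins store iron, 3 rose and none fell (median 0.98), but only 1 rose without the second ABA library, FER1 being at 52.8 and 78.3 CPM without ABA and 232 and 386 CPM with it (2.24). Of 18 genes of nitrate and ammonium uptake and assimilation 4 rose and 4 fell, shares near those of all genes, or 4 and 7 with scaling by library size alone. NRT1.5, which loads nitrate into the xylem, was at 103 and 97.2 CPM without ABA and 30.3 and 29.6 CPM with it (−1.74), AMT1;3 went from 23.3 and 19.5 CPM to 1.98 and 3.19 CPM (−3.05), and WR3 rose (1.76).

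Of 11 genes of guard cell channels and regulators 6 rose and 3 fell (median 0.52). RBOHF, an NADPH oxidase of guard cell signalling, went from 14.95 and 14.1 CPM to 50.6 and 49.99 CPM (1.79), SLAH3, an anion channel gene, went from 26.96 and 28.4 CPM to 111 and 83.2 CPM (1.81), and HT1, a kinase that keeps stomata open, went from 4.49 and 4.698 CPM to 1.19 and 1.67 CPM (−1.68). Only 1 fell without the second library lacking ABA, the first ABA library or either skip-1 library with ABA. Of 11 regulators of the stomatal lineage 6 fell and 1 rose (median −0.58), with 2 falling without the first library lacking ABA and 3 without the second ABA library. FMA, also known as FAMA, the factor that ends division in the lineage, went from 32.1 and 41.4 CPM to 15.4 and 16.9 CPM (−1.19), and EPF2, a peptide that limits entry into it, changed by −1.06. Of the 6 guard cell markers 2 rose and 3 fell (median −0.63), and they summed to 84.5 and 93.4 CPM without ABA and 73.8 and 81.7 CPM with it. Of these markers 4 are also in the list of channels and regulators, and FMA is in that of the lineage.

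Of 12 flavonoid genes 5 rose and none fell (median 2.3), but 1 rose without the second library lacking ABA, 2 without the first ABA library or without a filter on low counts, and 8 without either skip-1 library lacking ABA. TT5, chalcone isomerase, went from 22.6 and 21.3 CPM to 77.7 and 70.5 CPM (1.75). Of 17 glucosinolate genes 6 rose and 4 fell, which turned to 4 and 5 with scaling by library size alone, and 3 rose without the first library lacking ABA. CYP79B2 and SOT16 of the indole branch changed by 0.99 and 1.06, and MAM3 of methionine chain elongation went from 83.8 and 76.3 CPM to 16.6 and 19.4 CPM (−2.15). Of 33 cysteine-rich receptor kinase genes 12 fell and 6 rose (median −0.49), or 3 rose without the first library lacking ABA or either ABA library. CRK30 was at 24.2 and 24.8 CPM without ABA and 0.09896 and 0.0522 CPM with it, with 3 counts with ABA, and was 321-fold lower with ABA (95% counting interval 109.7 to 1561). CRK22 changed by −1.37 and CRK14 by 2.41. Of 16 clock genes 3 rose and 2 fell, and none rose without either library lacking ABA or without the first ABA library, and 3 fell with scaling by library size alone. The shares of 3 higher and 2 lower of 16 clock genes were near or below those of all genes. ELF4 changed by 1.21, LNK1 by 2.21 and RVE4 by −0.76. Of 20 SR splicing factor genes only SR30 was called (from 55.96 and 50.6 CPM to 111 and 113 CPM; 1.07), although 7 others were called lower with scaling by library size alone and 2 without the second ABA library.

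The wild type response was set against that of skip-1 to see where it differed. In skip-1 ABA changed 28.5% of genes. The difference between the ABA effects of the genotypes (the interaction, tested in the same model) passed for 644 genes (3.07%; 4134 at an unadjusted p under 0.05). In 599 of them the effect was larger in wild type and in 45 larger in skip-1, and 554 had the same sign in both genotypes. Of 4242 genes called in wild type and not in skip-1, 196 passed this test. Among the lists aquaporins had most such genes, 9 of 19. HB7 rose by 5.22 in wild type and by 3.23 in skip-1 (adjusted p of the difference 0.00292), and RNS1 by 8.29 and 4.05 (0.00285). The number of genes that passed was 1201 with DESeq2. It fell to between 121 and 319 when 1 library of wild type or 1 skip-1 library with ABA was left out, and was 531 and 608 without the second and the first skip-1 library lacking ABA.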

How the data were processed

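RNA of whole seedlings was sequenced in 8 libraries, 2 for each genotype and dose. The authors deposited raw read counts per gene and FPKM values. Per the submitters' processing notes the genome was TAIR10 and Bowtie2 2.2.3, TopHat2 2.0.12 and HTSeq 0.6.1 were used, while for their roles, the annotation release and the strand setting the sources used here give nothing. The deposited FPKM agreed within 0.1% with count, length and total in 100% of 23432 features. Of 33674 features 32835 matched a RefSeq gene of TAIR10.1.

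Counts were scaled by TMM and tested with edgeR 4.0.16 (R 4.3.3), in the quasi-likelihood test on all 8 libraries with a term for each group, after edgeR's filter on low counts, with Benjamini-Hochberg adjustment over all genes tested. Counts were scaled again by library size alone and by DESeq2's size factors, and DESeq2 1.42.0 was run as another test. Counts were simulated for 20716 genes of the wild type comparison, with 50 genes changed at each size and the same dispersion (0.0178) for every gene. The fit called 100% of genes raised 4-fold, 86% raised 2-fold, 64% lowered to 0.5 and 98% lowered to 0.25 of their level, with 12 false calls. In the data 9061 genes were called and the spread can differ between genes, so these shares need not hold there. Intervals of ratios and bounds from 0 counts cover counting error only. SE values were worked back from each fold change and its test statistic. They can be too small where a group held few counts.

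Members and gene lists were chosen with earlier results of these data known. Genes named include the 10 largest increases and decreases among called genes whose mean log2 CPM reached 5 and whose wild type groups did not overlap. They also include the 5 largest gains and losses in CPM among called genes. From each list the 2 called members with the smallest adjusted p in the leading direction and 1 in the other were chosen. Not all of these members are described above. Promoter letters were read from 250 bases upstream of the annotated start.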

Additional observations from a re-analysis of the deposited data

Results flagged for a closer look

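The ABA effect differed between wild type and skip-1 for 35 of the 173 named genes, by the test of the difference itself in edgeR (adjusted p from 0.00285 to 0.0498 over these genes). Over all genes tested the share was 3.07% (644 of 21008). Most named genes were picked for large or highly significant effects in wild type, which favours a larger effect there, so the 35 are no measure of how often the genotypes differ. Values are the log2 fold change in wild type minus that in skip-1, so that a positive value is a larger rise, and a negative value a deeper fall, in wild type. Among late embryogenesis, cold and sugar transport genes with large rises, the difference was 2.39 for AT3G17520, 2.8 for AT3G03341, 5.35 for AT3G02480, 4.50 for SWEET15 and 2.09 for SWEET4. Among signalling genes of the ABA pathway, the difference was 1.34 for ABI2, 0.93 for HAB2, 1.42 for MAPKKK17 and 1.23 for ABF3. Among transcription factor genes, the difference was 1.99 for HB7, 1.43 for HB12, 2.08 for MYB74, 1.26 for HSFB2A and 3.61 for HSFA6A. Among genes of protection, solutes, wax and suberin, the difference was 5.95 for HSP17.4, 1.91 for GOLS2, 2.53 for P5CS1, 0.95 for LACS2 and 1.29 for KCS2. Among genes of chlorophyll breakdown, senescence and water channels, the difference was 1.32 for NYE1, 4.25 for RNS1, 1.73 for SRG1, 1.63 for PIP2;3 and 1.32 for PIP1;4. Among coumarin and flavonoid genes, the difference was 1.79 for F6'H1 and 1.5 for TT5. Among genes that fell, the difference was −3.20 for XTH15, −2.01 for PYL4, −2.88 for AT5G62280, −1.23 for LHCB1.4, −1.24 for IAA27, −1.02 for IAA4, −1.70 for ARR5, −1.26 for NRT1.5 and −0.84 for MAM3. The numbers of genes passing this test depended on single libraries, as given with the processing.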

How the results depend on the processing

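The number of genes called in wild type was 6585 to 9368 when 1 library was left out (3694 to 5104 higher, 2777 to 4436 lower), and 70.3% to 97.8% of the 9061 calls were shared, none with the opposite sign. With scaling by library size alone 6658 genes were lower. Where genes needed a mean log2 CPM of 2 to be tested, 1096 were lower by 2-fold or more. The interaction was called for 121 to 608 genes when 1 library was left out, for 1201 with DESeq2 and for 1357 with the replicate number as a block, against 644. Replicate numbers are shared between groups, but 2 per group do not establish a pairing: deviations of same-numbered libraries correlated at 0.111 to 0.258 between groups. With that block 9892 genes were called in wild type. Of 2582 values of named genes under the alternatives, 2525 kept direction and call, 57 lost the call and 0 reversed. The lost calls included those of 17 genes when 1 library was left out. Of 1710 list counts 1550 lay within 1.5 times the count given, and the leading direction of 8 lists turned under an alternative. The causes were not tested.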

Other observations

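Both libraries of a group differed little for most genes. Over 6611 genes whose mean log2 CPM reached 5, the median absolute log2 difference was 0.117 without ABA and 0.111 with it, and 25 and 44 genes differed by over 2-fold. The genes named here were chosen after their values were seen. Nitrate reductase genes stood out with ABA, NIA1 at 214 and 760.3 CPM and NIA2 at 499.6 and 1637 CPM in the first and second library. UPM1, of sirohaem synthesis, was at 101 and 367 CPM, and SPX1, a gene of phosphate signalling, at 68.4 and 10.9 CPM. Without ABA, LHCB2.1 was at 329 and 126 CPM and the phosphatase gene HAI1 at 3.66 and 10.8 CPM.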
